A study of Mus musculus with 4 samples.

Results

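Nuclear factor kappa B (NF-κB) is a family of transcription factors that inhibitor proteins hold in the cytoplasm of resting cells. When a cytokine receptor or a stress signal leads to breakdown of the inhibitors, NF-κB enters the nucleus, binds short DNA elements known as κB sites and turns on genes of inflammation together with genes that shut the pathway down again. In injured nerve, Schwann cells are known to make cytokines and chemokines that draw in macrophages. The results here concern 10 genes of this response, taken as a named list: the feedback genes Nfkbia, Nfkbiz and Tnfaip3, the cytokine gene Il6, the chemokine genes Ccl2, Ccl7, Cxcl1 and Cxcl10, and the effector genes Ptgs2 and Icam1. They were represented by 11 of the 39429 gene probes on the array, and each of the 10 genes had 1 probe well above background in every sample.

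IMS32 cells, an immortalized mouse Schwann cell line, were exposed for 1 h to serum-containing DMEM with 5 or 15 mM glucose and with 1 mM pyruvate or none, and total RNA from each of the 4 conditions was hybridized to 1 one-colour Agilent microarray. The cultures at normal glucose are called [Glc 5 mM/Pyr (+)] when pyruvate was present and [Glc 5 mM/Pyr (−)] when it was absent, and those at raised glucose [Glc 15 mM/Pyr (+)] and, without pyruvate, [Glc 15 mM/Pyr (−)]. Values listed for the 4 conditions are in this order throughout. The comparisons ask how an hour without pyruvate, at normal or raised glucose, left the transcripts of these cells. No condition was replicated, so no difference between conditions can be set against the spread between cultures, and in RNA from whole cultures fewer cells of a type and less RNA per cell cannot be told apart. All 11 Schwann cell marker genes examined were well above background on the 4 arrays, among them Sox10, a transcription factor of the lineage, with intensities of 4837 to 5667. All 7 macrophage markers were also above background, from Itgam at 2706 to 4435 down to the pan-leukocyte gene Ptprc at 23.4 to 29.6, and their median log2 difference on pyruvate removal was −0.12 at 5 mM glucose and 0.069 at 15 mM. Of 5 fibroblast and 3 endothelial cell markers, 4 and 2 were measured on the 4 arrays, and of all 39429 probes 27589 were. A gene was counted if at least 1 of its probes was above background, so these counts do not set a cell type apart. The part of the macrophage markers in the results below was not tested.

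Promoter windows of 300 bases, from 250 before to 50 after an annotated start, were taken from RefSeq (mouse build GRCm38.p6) for 7 of the 10 genes, in 8 windows since Tnfaip3 has a pair of starts. Ccl2, Ccl7 and Nfkbiz had no window. The part before the start is shown for Cxcl10 and Nfkbia, which had the largest differences at 15 mM glucose, for Il6, which had the largest at 5 mM, and for the chemokine gene Cxcl1. Capitals mark matches to the κB motif on either strand. The windows are 5′ to 3′ on the gene's strand: Cxcl10 at chr5:92348890-92349139 (minus strand), Nfkbia at chr12:55492648-55492897 (minus strand), Il6 at chr5:30012864-30013113 (plus strand) and Cxcl1 at chr5:90890995-90891244 (plus strand).
Cxcl10: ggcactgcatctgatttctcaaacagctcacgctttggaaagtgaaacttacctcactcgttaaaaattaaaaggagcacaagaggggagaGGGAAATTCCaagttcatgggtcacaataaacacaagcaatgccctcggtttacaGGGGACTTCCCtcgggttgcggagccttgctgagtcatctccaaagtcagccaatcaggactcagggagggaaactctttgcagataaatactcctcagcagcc
Nfkbia: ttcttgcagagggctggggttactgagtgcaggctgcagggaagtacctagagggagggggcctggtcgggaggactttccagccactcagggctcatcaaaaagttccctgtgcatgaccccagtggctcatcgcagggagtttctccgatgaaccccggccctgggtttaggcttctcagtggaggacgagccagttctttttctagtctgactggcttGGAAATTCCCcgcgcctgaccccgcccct
Il6: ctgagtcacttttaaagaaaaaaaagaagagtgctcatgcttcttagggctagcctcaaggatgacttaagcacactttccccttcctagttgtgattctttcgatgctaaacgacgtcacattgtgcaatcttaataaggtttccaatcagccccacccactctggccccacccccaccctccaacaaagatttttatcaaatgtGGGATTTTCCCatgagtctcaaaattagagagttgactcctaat
Cxcl1: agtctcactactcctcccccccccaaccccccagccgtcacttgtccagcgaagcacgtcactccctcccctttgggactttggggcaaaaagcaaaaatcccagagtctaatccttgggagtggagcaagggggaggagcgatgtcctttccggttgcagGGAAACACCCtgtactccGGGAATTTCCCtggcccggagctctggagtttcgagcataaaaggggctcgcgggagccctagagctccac
The κB motif matched in 7 of the 8 windows and in 6 of the 7 genes, all but Ptgs2, where the share over all 32851 windows of the table was 26.8%. Cxcl10 held a match starting 159 bases before the start and overlapping matches starting 104 bases before it. Cxcl1 had matches at 89 and 71 bases, Icam1 at 120 bases, Il6 at 44 bases and Nfkbia at 29 bases before the start. The AP-1 motif TGANTCA, searched on both strands, was found for Cxcl10, Il6 and Tnfaip3, against 7.81% of all windows. The interferon-response motif TTTCNNTTTC was found for Cxcl10 alone, against 3.44% of all windows, and TATAAA for Icam1, Nfkbia and Tnfaip3, against 13.6%. The TATAAA match lay 13 bases after the start for Icam1 and 19 bases after it, on the opposite strand, for Nfkbia. For Tnfaip3 it lay 225 bases before the start. No motif searched overlapped a match of another in these windows. A match is a run of letters and was not examined for binding.

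**Figure D1:**
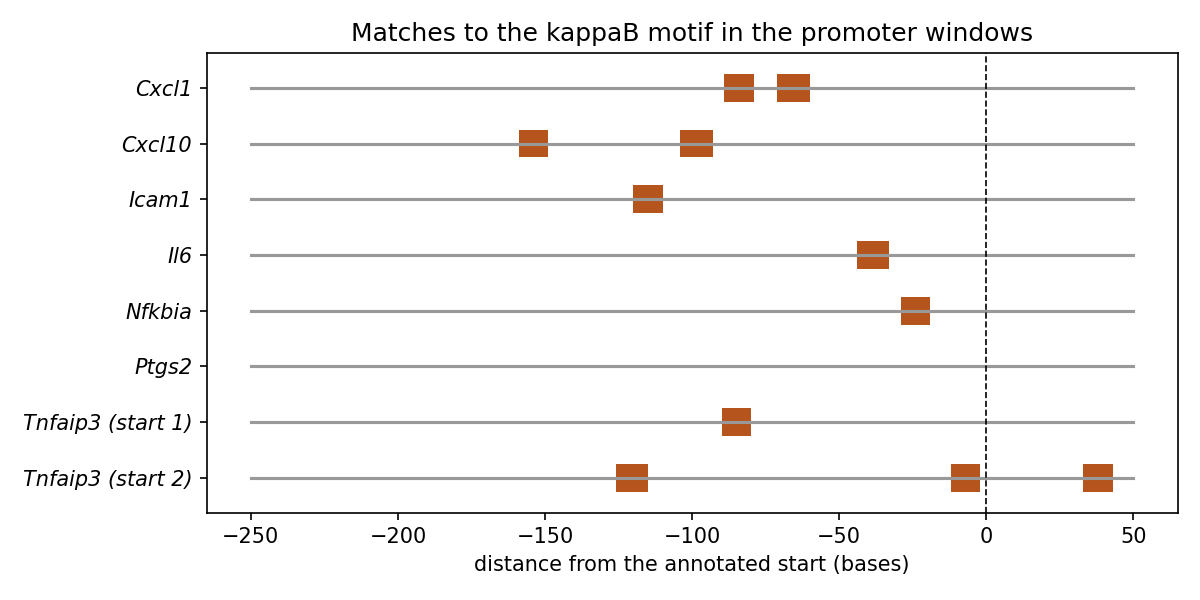
The 8 promoter windows (rows) are drawn by distance from the annotated start in bases, and boxes mark stretches matched by the κB motif. Every window but that of Ptgs2 holds at least 1 box, and the second Tnfaip3 window holds 3.

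Levels are given as log2 of a probe's intensity over the 75th percentile of all probes on the same array, which was 1788, 1740, 1597 and 1632 in that order. As the error of a difference, the scatter of repeated spots at a like brightness on the same array was used, so it covers the array measurement and not the culture. Of all probes measured on both arrays, 1.17% differed by 2-fold or more on pyruvate removal at 5 mM glucose and 2.1% at 15 mM. Between glucose levels these shares were 0.968% with pyruvate and 2.4% without it. None of the 10 genes reached 2-fold in any of the 4 comparisons. At 1.5-fold the shares over all probes were 3.2%, 6.54%, 3.12% and 7.28% in the same order, and the members past it were Il6 in the first, Cxcl10 and Nfkbia in the second, none in the third, and Cxcl10 and Nfkbia in the last. Cxcl10 stayed past 1.5-fold under all 6 other scalings and background settings. Nfkbia fell short in 3 of 6 at 15 mM glucose, with a smallest value of 0.57 on the log2 scale, and in 4 of 6 between glucose levels, with a smallest value of 0.41. Il6 fell short with normexp, at −0.584 against a threshold of 0.585 in size. Those shares came mostly from dim probes: on pyruvate removal at 15 mM glucose 13.3% of the dim, 4.73% of the middle and 0.881% of the bright probes differed by 1.5-fold, after a split into 3 equal classes by brightness. Nfkbia was in the bright class and Cxcl10 in the middle one. At 5 mM glucose the share in the middle class, which held Il6, was 0.228%.

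Nfkbia encodes IκBα, the inhibitor that NF-κB itself induces and that ends its own activation. Its probe had intensities of 6659 and 7002 at 5 mM glucose, with and without pyruvate, and of 6431 and 9979 at 15 mM, which are log2 levels of 1.90, 2.01, 2.01 and 2.61. The first 3 conditions thus lay close together and [Glc 15 mM/Pyr (−)] stood above them. Without pyruvate Nfkbia was higher by 0.60 ± 0.079 (log2, 1.52-fold) at 15 mM glucose and by 0.11 ± 0.079 at 5 mM. Nfkbiz, which encodes the nuclear inhibitor-like protein IκBζ that promotes Il6 transcription, was read by a probe at chr16:55817859-55817918 (mm9, minus strand). Its levels were −2.68, −3.12, −3.00 and −2.63. Nfkbiz was thus lower without pyruvate at 5 mM glucose, by −0.45 ± 0.12, and higher without it at 15 mM, by 0.37 ± 0.12. Tnfaip3, the gene of the ubiquitin-editing enzyme A20 that restrains signalling upstream of NF-κB, was read at chr10:18720776-18720835 (mm9, minus strand). Its levels were −0.036, −0.26, −0.041 and −0.32. Unlike the other feedback genes it was lower without pyruvate at both glucose levels, by −0.22 ± 0.094 at 5 mM and −0.28 ± 0.094 at 15 mM.

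Il6 encodes interleukin 6, a secreted cytokine. Its probe, at chr5:30346367-30346426 (mm9, plus strand), had intensities of 1013, 642, 812 and 810 and log2 levels of −0.82, −1.44, −0.98 and −1.01. Il6 was lowest in [Glc 5 mM/Pyr (−)], 0.43 below the next condition, and highest in [Glc 5 mM/Pyr (+)], 0.16 above the next. Without pyruvate it was lower by −0.62 ± 0.096 (1.54-fold lower) at 5 mM glucose. At 15 mM glucose the pyruvate difference was −0.033 ± 0.096. With spike-in scaling the difference at 5 mM was −0.81, and Il6 differed between glucose levels by −0.51 with pyruvate and 0.23 without it.

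Cxcl10, whose product attracts T cells and which interferons and NF-κB both induce, was read at chr5:92775781-92775840 (mm9, minus strand). Its intensities were 304, 338, 324 and 596, and its log2 levels −2.55, −2.36, −2.30 and −1.45. [Glc 15 mM/Pyr (−)] was again the condition that stood above the others, with a pyruvate difference of 0.85 ± 0.10 (1.80-fold) at 15 mM glucose and 0.19 ± 0.10 at 5 mM. Between glucose levels Cxcl10 differed by 0.91 ± 0.10 (1.88-fold) without pyruvate and by 0.25 ± 0.10 with it. A second Cxcl10 probe, designed to another transcript record, was not well above background on any array. Cxcl1, which encodes a neutrophil attractant, had levels of −2.69, −2.96, −2.84 and −2.65 at its probe (chr5:91321845-91321904, mm9, plus strand). Its pyruvate difference was −0.27 ± 0.12 at 5 mM and 0.19 ± 0.12 at 15 mM glucose.

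Ccl2 and Ccl7 encode monocyte attractants and are neighbours on chromosome 11, with probes at chr11:81850650-81850709 and chr11:81860656-81860715 (mm9, plus strand) and 9946 bases between them. Ccl2 was printed on 10 spots of each array. Its mean intensity and SD over the 10 spots were 59358 ± 1842, 51185 ± 1577, 52337 ± 1682 and 56590 ± 1966, and its levels after scaling were 5.05, 4.88, 5.03 and 5.12. The levels of Ccl7 were 3.94, 3.83, 3.86 and 4.15. Both were lowest in [Glc 5 mM/Pyr (−)] and highest in [Glc 15 mM/Pyr (−)] on this scale, but under quantile, cyclic loess and spike-in scaling Ccl2 was highest in [Glc 5 mM/Pyr (+)] and Ccl7 was lowest in [Glc 15 mM/Pyr (+)]. Pyruvate removal gave −0.17 ± 0.020 and 0.082 ± 0.020 for Ccl2, and −0.11 ± 0.075 and 0.29 ± 0.075 for Ccl7, at 5 and 15 mM glucose respectively. The whole range of Ccl2 over the 4 arrays was 1.18-fold, the narrowest of the 10 genes, and that of Cxcl10 was 2.15-fold, the widest.

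Ptgs2 encodes cyclooxygenase-2, the inducible enzyme of prostaglandin synthesis, and was read at chr1:151954744-151954803 (mm9, plus strand). Its 9 usable spots gave mean intensities and SDs of 1130 ± 14.8, 831 ± 42.0, 820 ± 17.7 and 808 ± 29.4, and levels of −0.66, −1.07, −0.96 and −1.01. Before scaling, the lowest spot in [Glc 5 mM/Pyr (+)], 1112, was above the highest spot of the other 3 arrays, 935. Ptgs2 was thus highest with normal glucose and pyruvate, and lower without pyruvate by −0.40 ± 0.031 at 5 mM and −0.052 ± 0.031 at 15 mM glucose. With pyruvate present it was lower at 15 than at 5 mM glucose by −0.30 ± 0.031. Icam1, the gene of an adhesion molecule for leukocytes, had the widest error of the members, with levels of −4.65, −4.73, −4.51 and −4.36 (chr9:20832290-20832349, mm9, plus strand). Its largest difference, 0.38 ± 0.23, was between glucose levels without pyruvate, and it was 0.15 with normexp.

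**Figure D2:**
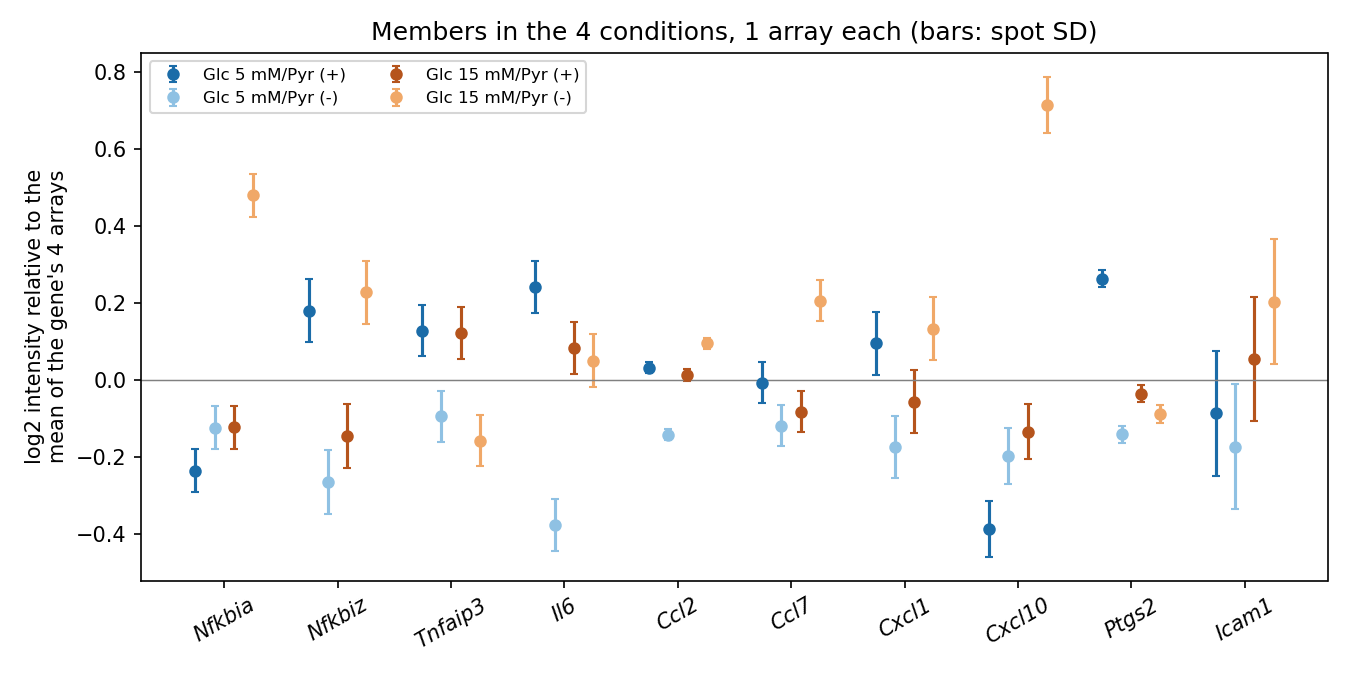
Log2 intensity of each member (x axis) in the 4 conditions, as the difference from the mean of that gene's 4 arrays. Points are single arrays and bars the SD of repeated spots at that brightness, divided by the square root of the probe's number of spots. Nfkbia and Cxcl10 stand highest in [Glc 15 mM/Pyr (−)], Il6 stands lowest in [Glc 5 mM/Pyr (−)] and Ptgs2 stands highest in [Glc 5 mM/Pyr (+)].

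**Figure D3:**
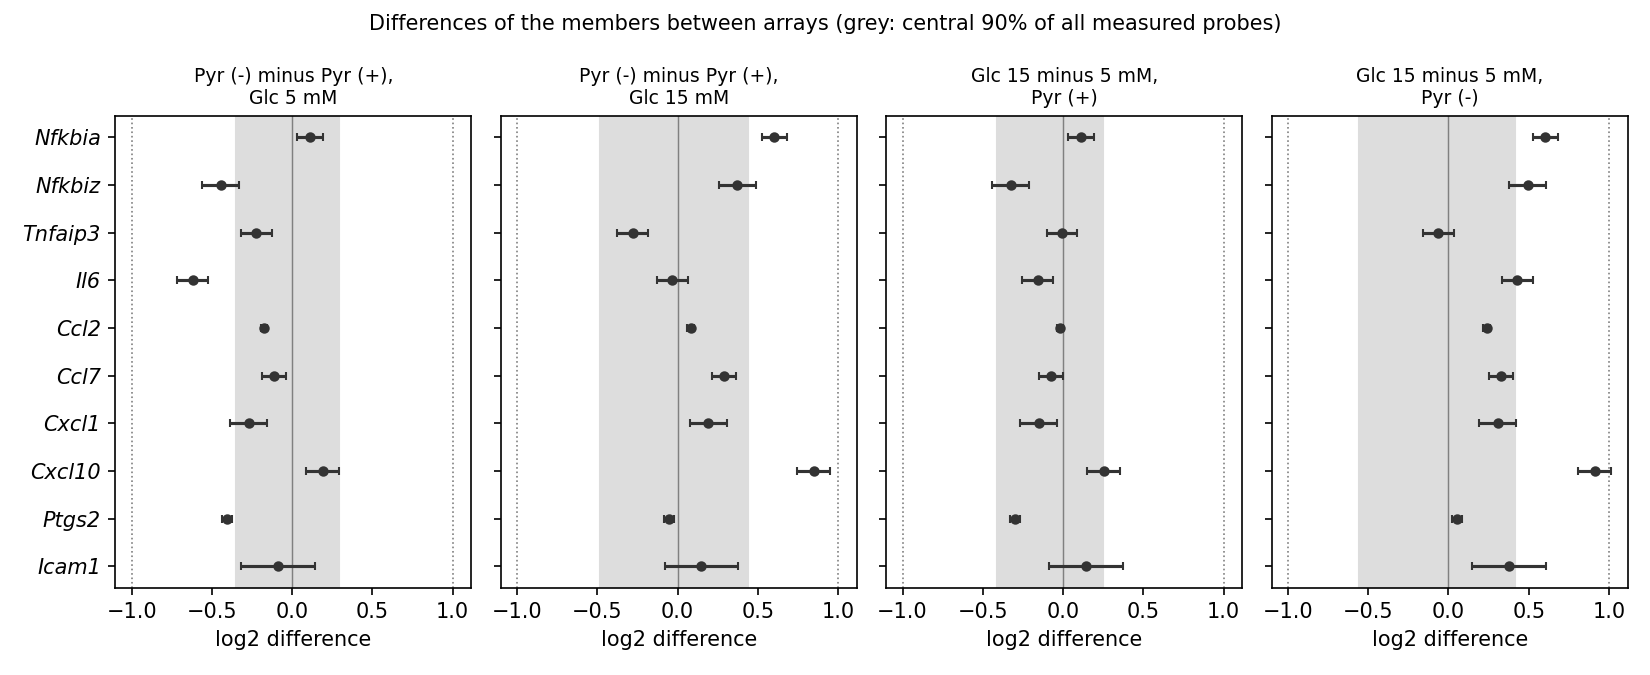
Log2 differences of the 10 members (rows) in the 4 comparisons (panels), with bars of 1 error of a difference from repeated spots. The grey band holds the central 90% of all measured probes, dotted lines mark 2-fold, and no member reaches them.

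Without pyruvate, 9 of the 10 genes were higher at 15 than at 5 mM glucose, all but Tnfaip3, and the 9 differences exceeded 1 error. The share of all probes beyond 1 error was not counted, and the SD of this difference over all probes was 0.34. The members' median was 0.35, against 0.032 over all probes, 55.8% of which were higher. With pyruvate 3 of 10 were higher, with a median of −0.047 against −0.017. On pyruvate removal at 5 mM glucose 2 of 10 were higher, Nfkbia and Cxcl10, and the median was −0.20 against −0.018. At 15 mM glucose 7 of 10 were higher, all but Il6, Tnfaip3 and Ptgs2, and the median was 0.17 against 0.028. The condition in which a gene was highest was [Glc 15 mM/Pyr (−)] for 7 of 10, against 38.0% of all probes, and the condition in which it was lowest was [Glc 5 mM/Pyr (−)] for 7 of 10, against 23.1%. The gap from the highest to the next condition was within 1 error for Cxcl1 (0.038), Nfkbiz (0.047) and Icam1 (0.15). That from the lowest to the next was within 1 error for Ccl7 (0.036) and Icam1 (0.087). With scaling to the spike-in RNAs, which lowered the median of all probes in the glucose comparisons by 0.35 with pyruvate and 0.20 without, [Glc 15 mM/Pyr (−)] was the highest for 2 of 10 genes, Cxcl10 and Nfkbia, and for 4.79% of all probes. With that scaling [Glc 5 mM/Pyr (−)] was the lowest for 2 of 10, Icam1 and Il6, and for 4.26% of all probes, and with cyclic loess it was the lowest for 5 of 10.

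The pyruvate difference at 15 mM glucose minus that at 5 mM was above 0 in 9 of the 10 genes, against 57.4% of all probes, and its median was 0.43 against 0.043. It was 0.82 ± 0.16 for Nfkbiz, 0.66 ± 0.15 for Cxcl10, 0.59 ± 0.14 for Il6 and 0.49 ± 0.11 for Nfkbia. For Tnfaip3 it was −0.057 ± 0.13. The first 3 passed 1.5-fold, which 8.7% of all probes did in either direction. Nfkbiz did so under all 6 alternatives and Cxcl10 under 5, with 0.52 under normexp, but Il6 did so under 2 only, with a smallest value of 0.54. This contrast has no replicate error either.

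**Figure D4:**
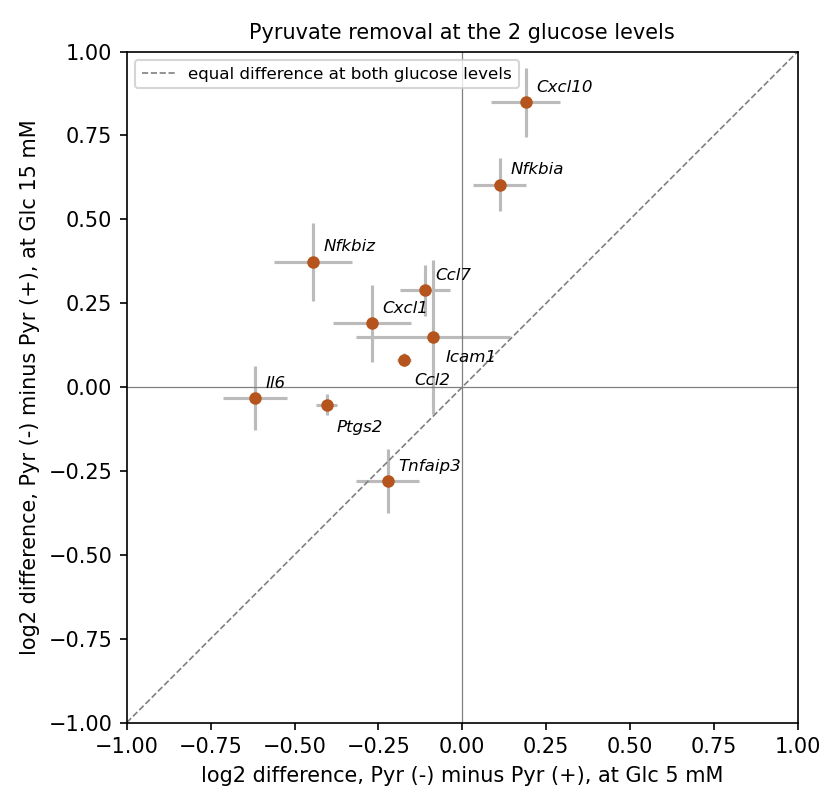
Pyruvate difference of each member at 5 mM glucose (x axis) and at 15 mM glucose (y axis), both log2, with bars of 1 error from repeated spots. Points above the dashed line have the higher value at 15 mM, as do all members but Tnfaip3.

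Limma fitted on all 31274 probes with a pyruvate and a glucose term has 1 residual degree of freedom, which is their interaction. It called no probe for pyruvate or for glucose at an adjusted p of 0.05, where 1077 and 1495 probes had an unadjusted p under 0.05. Among the members the lowest adjusted p (limma, Benjamini-Hochberg) was 0.985 for pyruvate and 0.772 for glucose, and none had an unadjusted p under 0.05. The interaction itself has no residual degree of freedom in this design and was not tested. A design of 4 single arrays leaves this fit little power, so a missing call does not show that levels were alike.

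Of the 14 receptor genes 12 were measured, and none differed by 1.5-fold in any comparison, where 3.12% to 7.28% of all probes did. The largest receptor value was that of Cd40, a member of the tumour necrosis factor receptor family, at 0.53 between glucose levels without pyruvate. Of the 18 adaptor and kinase genes 1 passed 1.5-fold as a mean over its probes, Traf2, a receptor adaptor, with 0.65 between glucose levels with pyruvate. In that comparison 3.12% of all probes passed 1.5-fold. The 2 probes of Traf2 disagreed, at 0.29 and 1.02. Map3k8, a kinase that acts downstream of the IκB kinases, was the largest of the list in the other comparisons, with −0.24 and 0.53 for pyruvate removal at 5 and 15 mM glucose and 0.53 between glucose levels without pyruvate. Of the 5 NF-κB subunit genes 4 were measured, and the largest value was −0.15, that of Nfkb1, a mean over 2 probes between glucose levels without pyruvate. The fifth, Rel, was not well above background on the arrays.

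Among the 18 inhibitor and feedback genes, which include Nfkbia, Nfkbiz and Tnfaip3, 3 were higher by 1.5-fold or more on pyruvate removal at 15 mM glucose, Bcl3, Zfp36 and Nfkbia, and none was lower by as much, where 6.54% of all probes differed by 1.5-fold. Bcl3, a nuclear cofactor of the p50 and p52 subunits, had intensities of 41.9, 63.5, 41.4 and 107 and was higher without pyruvate by 1.34 at 15 mM and 0.64 at 5 mM glucose. At 15 mM its value was 0.59 with normexp background correction. Zfp36, whose product destabilizes cytokine mRNAs, had intensities of 242, 159, 152 and 278, with pyruvate differences of −0.56 at 5 mM and 0.84 at 15 mM glucose. The list's median was −0.0049 at 5 mM and 0.056 at 15 mM.

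Of 12 cytokine genes 6 were measured on all arrays, and Il1a, Il1b, Csf2, Csf3 and Tslp were not well above background. At 5 mM glucose the median pyruvate difference of the 6 was −0.28, against −0.018 over all probes. All 6 were lower, where 44.5% of all probes were higher. Il6 and Tnf passed 1.5-fold there, as did 3.2% of all probes. Tnf, a dim probe with intensities of 33.9, 21.7, 21.5 and 27.8, gave −0.60, or −0.11 with normexp. At 15 mM glucose 3 of 6 were higher, against 55.9% of all probes. Of 18 chemokine genes 14 were measured at 15 mM, with a median of 0.15. Cxcl16, the gene of a transmembrane chemokine, had the largest value, with intensities of 35.7, 30.3, 23.5 and 107 and a pyruvate difference of 2.15 at 15 mM glucose, or 0.76 with normexp. Among adhesion and effector genes, 12 of 15 measured, Ier3, an immediate early gene, was higher without pyruvate by 0.59 at 15 mM glucose.

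Since Cxcl10 is also an interferon-induced gene, 13 interferon-stimulated genes were examined beside it, of which 12 were measured and Ifnb1 was not well above background. On pyruvate removal at 15 mM glucose 10 of 12 were higher, with a median of 0.25, against 55.9% and 0.028 for all probes. At 5 mM 10 of 12 were higher too, with a median of 0.10, against 44.5% and −0.018. Between glucose levels 10 were higher with pyruvate and 11 without it, against 45.8% and 55.8% of all probes. Their medians there were 0.15 and 0.21, against −0.017 and 0.032. The largest value on pyruvate removal at 15 mM was that of Mx1, an antiviral GTPase, at 0.83, from intensities of 28.2 to 51.3, and it was 0.10 with normexp. Between glucose levels without pyruvate Mx1 differed by 1.40, or 0.40 with normexp. The comparison list of 8 AP-1 and stress genes had a median of −0.0089 at 5 mM and 0.44 at 15 mM glucose. Fos, an AP-1 subunit, had intensities of 1070, 782, 623 and 3980 and a pyruvate difference of 2.65 at 15 mM glucose, and Atf3, a stress-induced factor, had 1364, 1880, 1299 and 2653 and a difference of 1.00. Both values exceed those of each of the 10 genes.

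**Figure D5:**
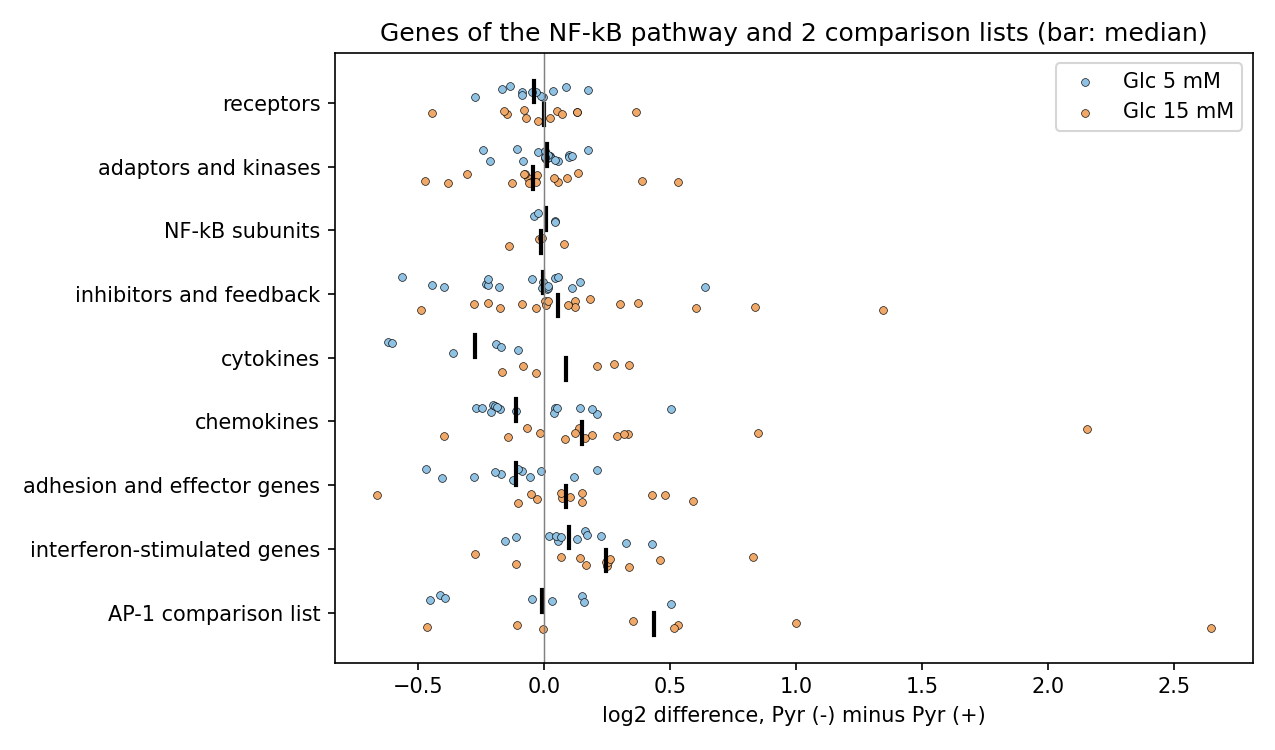
Log2 pyruvate difference (x axis) of each measured gene of 9 lists (rows) at 5 and 15 mM glucose, with a bar at the list's median. Points are spread vertically for display. The medians of receptors, adaptors and subunits lie within 0.043 of 0, and the points farthest to the right at 15 mM are Fos, Cxcl16 and Bcl3.

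The gene patterns most like that of Cxcl10 were sought among 9417 genes with probes above background on the 4 arrays and at or above the median brightness, by the Euclidean distance between centred log2 levels. The nearest were Rgs2, a regulator of G protein signalling, at 0.12, Cebpd, a transcription factor of the acute phase response, at 0.13, Hexim1, an inhibitor of transcription elongation, at 0.13, Taf7, a general transcription factor subunit, at 0.16, and Prcp, a carboxypeptidase, at 0.18. Rgs2 had intensities of 2726, 2860, 2594 and 5191 and Cebpd had 5782, 5698, 5638 and 10734. That [Glc 15 mM/Pyr (−)] stood above the other conditions in both, as in Cxcl10, follows from their selection by this distance. The likeness rests on 4 values a gene.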

How the data were processed

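Per the labels and the study's methods, RNA from 4 cultures of IMS32 cells was labelled with Cy3 and hybridized to Agilent mouse arrays, all on 1 slide. The scanner intensity values were produced by the authors with Feature Extraction 11.5.1.1 as background-subtracted processed signals. The authors also deposited a table of each feature's ratio to its array's 75th percentile, and all 44397 features matched the scanner signal divided by one constant an array. Depth in reads does not apply, and 28470 to 30344 of 39429 probes were well above background. No spot was saturated.

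Control and outlier spots were left out, log2 signals were averaged over the spots of a probe, and each array's 75th percentile was subtracted. Gene symbols came from RefSeq for 30708 probes. A probe entered a comparison if well above background on at least 1 of its arrays for limma (3.58.1, R 4.3.3) and on both arrays for counts of folds. Probe positions are those of the array design. With 1 array per condition there are no replicates, so 2-fold was the call. The error of a difference was taken from 399 probes printed on 10 spots, using those within 1 log2 unit of the probe's level. The limma fit was tested on simulated data with pyruvate changes and no interaction. In the real data the interaction is the residual, so that test does not cover them. The planned fit of the interaction took both main effects as its error and is not used. Genes named beyond the 10 are those past 2-fold or with the largest difference in their list. Zfp36, Tnf, Ier3 and the markers were added after their values were seen. The 10 members and the lists were chosen with earlier results of these data known. Alternatives were other percentiles, quantile, cyclic loess and spike-in scaling, normexp (offset 50), the deposited ratio, other filters on dim probes and 1.5-fold. One gene of the adhesion and effector list is not reported here.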

Additional observations from a re-analysis of the deposited data

Results flagged for a closer look

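For 4 of the 10 genes pyruvate removal gave opposite directions at the 2 glucose levels, each by more than 1 error from repeated spots. The share of all probes that did so was not counted, so whether 4 of 10 is unusual was not tested. The medians over all probes were −0.018 at 5 mM and 0.028 at 15 mM glucose. With 1 array per condition the differences between glucose levels were not tested against replicates. The log2 difference was −0.45 at 5 mM and 0.37 at 15 mM glucose for Nfkbiz, −0.27 and 0.19 for Cxcl1, −0.17 and 0.082 for Ccl2, and −0.11 and 0.29 for Ccl7. The error leaves out the choice of scaling. At 15 mM glucose the Ccl2 value was 0.044 with quantile, 0.050 with cyclic loess and 0.047 with spike-in scaling. That of Cxcl1 was 0.096 with normexp, within its error of 0.12.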

How the results depend on the processing

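Of 342 alternative values, 293 moved by less than the spread of repeated spots or kept their count within 1.5 times, and 49 moved by more. Many of the 293 had little room to move. With 1 measured probe a gene, the filters on dim probes and the choice of the brightest probe left the members' medians unchanged. The deposited ratio is nearly the same scaling, and 0 of its 40 gene values moved. Counts of limma calls, all 0, are included, also those of the interaction fit that is not used. Of 240 values of single genes 42 moved, and 9 changed sign, the largest of them 0.25 in size. These were Nfkbia at 5 mM glucose and with pyruvate, Cxcl10 and Icam1 with pyruvate and Ptgs2 without it under spike-in scaling, Icam1 at both glucose levels with normexp and at 5 mM with cyclic loess, and Tnfaip3 with pyruvate under cyclic loess. Spike-in scaling also moved the members' median to −0.39 for pyruvate removal at 5 mM glucose, to −0.40 between glucose levels with pyruvate and to 0.15 without it. With a 1.5-fold threshold the count of members past it was 1 for pyruvate removal at 5 mM, 2 at 15 mM and 2 between glucose levels without pyruvate. Without a filter on dim probes 1 member probe passed 2-fold in the last comparison, the dim second probe of Cxcl10. The difference of the pyruvate differences, an alternative set chosen after seeing the data, was above 0 in 8 of 10 genes with normexp, all but Tnfaip3 and Icam1, in 10 of 10 with spike-in scaling, and in 9 of 10 otherwise. Limma called no member for pyruvate or glucose under any alternative. No paired analysis was possible because each condition has 1 array. The number of arrays limits the precision of every difference.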

Other observations

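The macrophage marker Cd68, a lysosomal glycoprotein, had intensities of 1200 and 1258 at 5 mM glucose, with and without pyruvate, and of 969 and 1817 at 15 mM. It was the only one of the 7 macrophage markers to differ by 1.5-fold. Its log2 difference was 0.88 for pyruvate removal at 15 mM glucose and 0.62 between glucose levels without pyruvate. Of all probes 6.54% and 7.28% passed 1.5-fold there. The median of the 7 markers on pyruvate removal at 15 mM glucose was 0.069. The Schwann cell gene Egr2, a transcription factor of myelination, had 17165, 11169, 12990 and 10976 in the 4 conditions, with a pyruvate difference of −0.58 at 5 mM glucose. That was the largest value of the 11 Schwann cell markers there and went against most of them. In that comparison 8 of the 11 were higher without pyruvate, with a median of 0.085, against 44.5% of all probes and −0.018.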
